A study of Homo sapiens with 6 samples.

Results

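The genes followed here were 10 members of the Notch signalling pathway, namely the receptors NOTCH1, NOTCH2 and NOTCH3, the ligands DLL1, DLL3, JAG1 and JAG2, the glycosyltransferase LFNG, and the targets HES1 and HEY1. They were picked by gene symbol, and all 10 were found among the 61155 symbols of the count table. Notch signalling lets neighbouring cells instruct each other. A ligand of the Delta or Jagged family on one cell binds a NOTCH receptor on the next, ADAM proteases and γ-secretase then cut the receptor, and its intracellular domain enters the nucleus, where it joins the DNA-binding protein RBPJ and a Mastermind coactivator on target genes. HES and HEY genes, which encode transcriptional repressors, are the best known targets, and in the developing forebrain and retina they hold progenitors undifferentiated.

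Bulk RNA sequencing compared undifferentiated human embryonic stem cells (hESCs) of the established line H7, grown without feeder cells on Matrigel in TeSR-E8 medium, with S6K1-/- hESCs derived from it. S6K1-/- cells were made by Cas9 cutting at exons 9 and 11 of RPS6KB1, which encodes S6K1, and were expanded clonally. The paper names clone #1 for this experiment, so that a difference of genotype and a difference of clone cannot be told apart. The GEO labels give these samples a genotype of knockdown and a time of week 5, whereas their protocols describe undifferentiated cells and a knockout, and no other treatment or batch is labelled. There were 3 libraries per group, and whether they came from separate cultures is not stated, so p-values measure the spread between these libraries, which may be technical.

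Library totals ran from 21896698 to 24473013 counts. The spread around the group mean was similar in all libraries (SD of 0.159 to 0.175 on the log2 scale over all genes tested). In WT, replicate 2 differed from replicates 1 and 3 by more than these did from each other. RPS6KB1 had 831, 791 and 777 counts in WT replicates 1, 2 and 3 and 464, 464 and 438 counts in the S6K1-/- replicates, and its log2 fold change was -0.75. The 8 pluripotency markers examined were all expressed, with summed levels of 5872 to 6002 counts per 1000000 (CPM) in WT and 5519 to 5533 CPM in S6K1-/- libraries, and 1 of them, the DNA methyltransferase gene DNMT3B, fell by 0.35 on the log2 scale at an adjusted p under 0.001. Of these 8, 6 had a log2 fold change below 0, and TDGF1 was at -0.15 (adjusted p = 0.0308). Of the other marker lists, TEK among 4 tested endothelial markers fell by 3.17, PDGFRB among 4 tested mesoderm and mesenchyme markers fell by 1.34, and PAX6 among 6 tested neuroectoderm markers rose by 0.76, a call that held in 3 of 6 fits with a library left out. At an adjusted p under 0.05, where 8.31% of all genes tested were lower and 5.47% higher, 3 endothelial markers were lower and 0 higher, the others being ERG (-0.36, adjusted p = 0.00874) and TIE1 (-0.71, adjusted p = 0.0200), while KDR was at 0.04 (adjusted p = 0.635). In the neuroectoderm list 1 was lower, MAP2 at -0.85 (adjusted p = 0.00735), and 2 were higher, PAX6 and SOX1 at 1.29 (adjusted p = 0.0174). In the mesoderm list 1 was lower and 1 higher, MIXL1 at 0.24 (adjusted p = 0.0449). Summed over each list, neuroectoderm markers lay at 456 to 476 CPM in WT and 443 to 458 CPM in S6K1-/- libraries, endothelial markers at 119 to 132 and 116 to 119 CPM, mesoderm and mesenchyme markers at 23.3 to 25.9 and 20.4 to 22.9 CPM, amnion and trophoblast markers at 20.5 to 22.4 and 17.7 to 19.8 CPM, and endoderm markers at 8.09 to 11.1 and 4.46 to 5.54 CPM. The neuroectoderm sum was mostly NES (442 CPM in WT and 424 CPM in S6K1-/- hESCs on average) and the endothelial sum mostly KDR (104 and 107 CPM), so that these sums do not show the other genes of their lists. None of 4 endoderm and 3 amnion and trophoblast markers tested passed 0.001, but FOXA2 (-0.88, adjusted p = 0.00108) and KRT7 (-0.82, adjusted p = 0.00103) were close to it. At 0.05, 2 endoderm markers were lower and 0 higher, the other being CXCR4 at 3 to 32 counts (-1.26, edgeR adjusted p = 0.0235). Of the amnion and trophoblast markers 1 was lower and 0 higher. All 4 endoderm markers had lower values in every S6K1-/- library than in any WT library, as had 16.7% of all genes tested. The defining endothelial genes PECAM1 and CDH5 had at most 4 counts in any library, and SOX17 and TWIST1 had at most 1 and 3. The part of such differences in the Notch values was not tested.

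Of the 10 Notch genes, 9 had enough counts to be tested. At an adjusted p under 0.001, the study's threshold, edgeR's quasi-likelihood test called 0 of the 9, beside 3.96% of all genes tested. DESeq2's Wald test, which the study used, also gave 0. At an unadjusted p under 0.05, 4 of the 9 were counted, beside 26.4% of all genes tested. The same 4 genes had an adjusted p under 0.05, which is 44.4% of those tested beside a background of 13.8%. With any 1 library left out, 2 of the 9 remained under 0.05, DLL3 in all 6 fits together with NOTCH2, HES1 or LFNG in 2 fits each, beside 9.37% to 11.9% of all genes. DLL3 and LFNG were the 2 with lower values in S6K1-/- hESCs (8.31% of all genes tested) and NOTCH2 and HES1 the 2 with higher values (5.47%). In bulk RNA, fewer cells of a type and less RNA per cell cannot be told apart. With edgeR fitted without a filter on low counts, all 4 were past 0.001, as were 4.17% of all genes in that fit. The median log2 fold change of the 9 genes was -0.01, and that of all genes tested was 0.00 when rounded in the same way. WT and S6K1-/- libraries were fully separate for 3 of the 9 genes (33.3%), beside 30.7% of all genes tested. DLL3 was separate with lower values (16.7% of all genes) and NOTCH2 and JAG1 with higher values (14.0%).

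**Figure D1:**
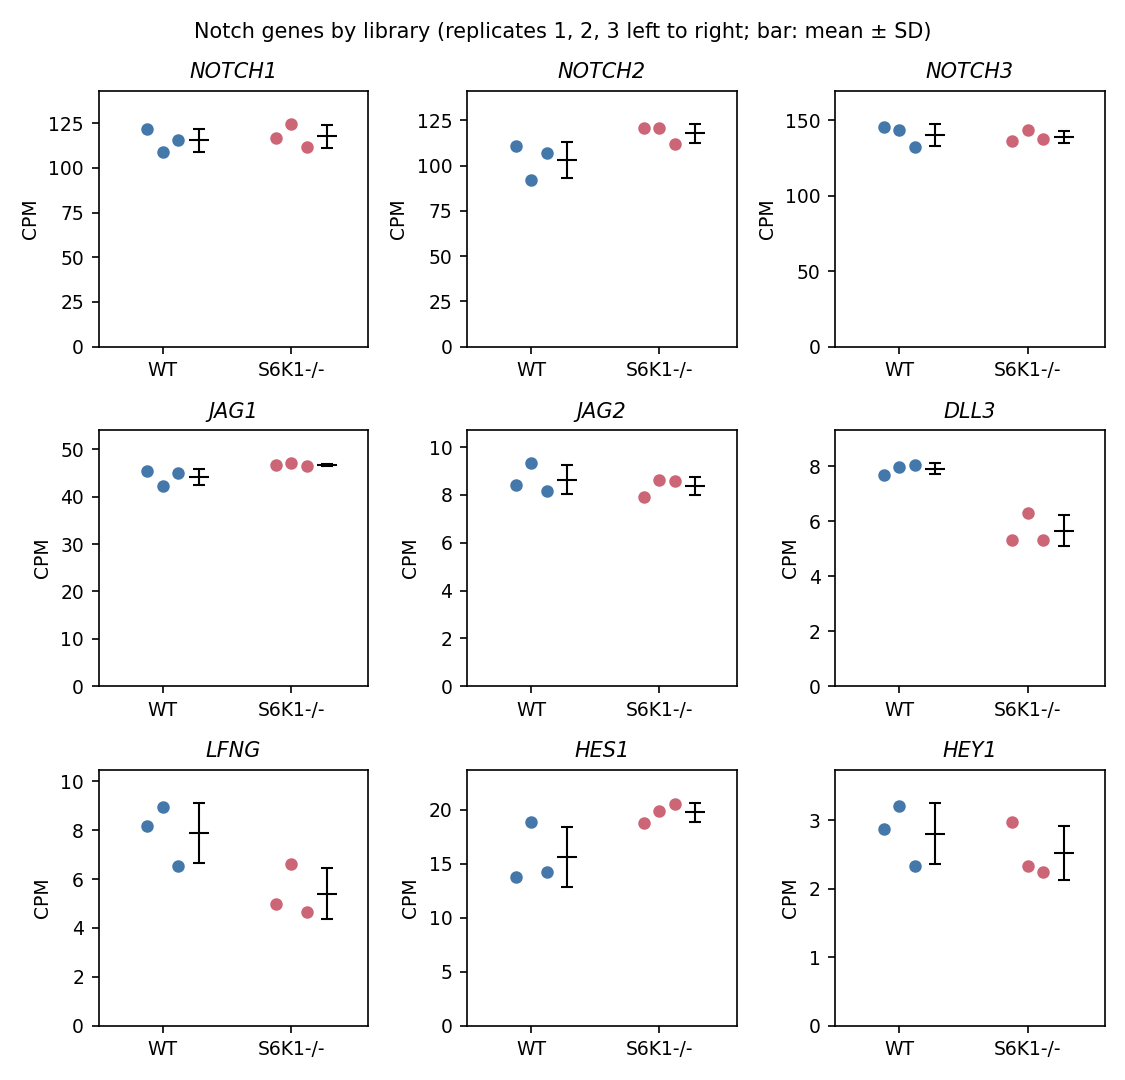
Level of each tested Notch gene, in CPM on a linear axis that starts at 0, in each of the 3 WT and 3 S6K1-/- libraries, with the mean and SD beside the points. The points of DLL3 separate clearly between the groups, those of NOTCH2 and JAG1 separate narrowly, and WT replicate 2 of HES1 lies at the level of the S6K1-/- libraries.

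NOTCH receptors carried the highest counts of the members. NOTCH1 encodes the receptor best known from T-cell and neural progenitor biology, and it had 2965, 2676 and 2687 counts in WT and 2734, 2982 and 2430 counts in S6K1-/- libraries. These amount to 115 ± 6.47 CPM and 118 ± 6.53 CPM (SD, n = 3 each), with libraries that interleave. Between genotypes the log2 fold change was 0.03, with a 95% confidence interval from -0.08 to 0.13 (edgeR adjusted p = 0.796). NOTCH3, which is best known from vascular mural cells, was the most abundant member here. It had 3544, 3526 and 3069 counts in WT and 3206, 3442 and 2989 counts in S6K1-/- libraries. Its log2 fold change was -0.01, with an interval from -0.11 to 0.08 (edgeR adjusted p = 0.901).

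NOTCH2 was the receptor with the largest difference. Its counts were 2700, 2264 and 2485 in WT and 2840, 2890 and 2432 in S6K1-/- libraries. After scaling to library size these gave 111, 92.1 and 107 CPM against 121, 121 and 112 CPM. Every S6K1-/- library was thus above every WT library, although the lowest of the first exceeded the highest of the second by less than 1 CPM. The log2 fold change was 0.19 (edgeR adjusted p = 0.0466, standard error 0.060), an estimate of 14.1% more. This call depended on the libraries and the scaling. With 1 library left out the adjusted p was under 0.05 in only 2 of 6 fits, ranging from 0.0174 to 0.151, and with upper-quartile scaling of all 6 libraries it was 0.0616. Without WT replicate 2, the lowest library, the log2 fold change was 0.11.

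NOTCH2 has near-identical partial copies, the human NOTCH2NL genes, and how the authors' counting treated reads that fit several copies is not given in the sources used here. NOTCH2NLC had 31, 25 and 35 counts in WT and 33, 48 and 37 counts in S6K1-/- libraries, with a log2 fold change of 0.43 (interval from -0.02 to 0.88, edgeR adjusted p = 0.213). NOTCH2NLA reached at most 2 counts, and NOTCH2NLB and the pseudogene NOTCH2P1 had 0 counts in all 6 libraries. Since reads may be shared between them, the values of NOTCH2 and of its copies are uncertain. NOTCH4, the remaining receptor and an endothelial gene, had at most 1 count in any library and was not tested.

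Ligands differed from each other in level and in their comparison between genotypes. JAG1, the most abundant of the 4 ligands among the members, activates NOTCH receptors in trans. It had 1104, 1038 and 1045 counts in WT and 1096, 1126 and 1013 counts in S6K1-/- libraries. After scaling, the S6K1-/- libraries lay at 46.7, 47.0 and 46.5 CPM and the WT libraries at 45.3, 42.2 and 45.0 CPM, without overlap. The difference was small, a log2 fold change of 0.08, with an interval from -0.02 to 0.18 (edgeR adjusted p = 0.303). JAG2, the second Jagged ligand, had 205, 229 and 190 counts in WT and 186, 206 and 187 counts in S6K1-/- libraries, which overlap. Its log2 fold change was -0.05, with an interval from -0.24 to 0.14 (adjusted p = 0.798).

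DLL3 is a divergent Delta ligand that resides largely inside the cell and is known to inhibit Notch signalling in the cell that makes it. It had 187, 196 and 187 counts in WT libraries and 125, 151 and 116 counts in S6K1-/- libraries. Its level was 7.90 ± 0.195 CPM in WT and 5.65 ± 0.566 CPM in S6K1-/- hESCs (SD, n = 3 each), with all S6K1-/- libraries below all WT libraries. DLL3 thus had a log2 fold change of -0.48 (edgeR adjusted p = 0.00404, standard error 0.099), which leaves 71.7% of the WT level. Of the 9 members DLL3 had the smallest adjusted p in this fit, but not under every alternative. Without a filter on low counts the edgeR adjusted p was 4.26e-04 for DLL3 and 4.63e-05 for LFNG. With a block for replicate number it was 0.00753 and 0.00395. The adjusted p of DLL3 was under 0.05 in all 6 fits that each left out a library (0.00270 to 0.0245), and with DESeq2's Wald test it was 0.0297.

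DLL1, a canonical activating ligand, was close to absent from the counts. It had 1 count in S6K1-/- replicate 2 and 0 counts in each of the other 5 libraries, and it was removed by the filter on low counts. A count of 0 allows up to 3 counts, or 0.123 to 0.137 CPM in these libraries, and such limits cover counting error only. DLL4, the Delta ligand of endothelium, had 3, 12 and 3 counts in WT and 6, 2 and 4 counts in S6K1-/- libraries and was not tested either. Of DLL1, DLL3 and DLL4, only DLL3 had enough counts for a test.

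LFNG, or Lunatic fringe, is a glycosyltransferase that adds N-acetylglucosamine to O-fucose on NOTCH extracellular repeats and thereby tunes the response to Delta against Jagged ligands. It had 199, 220 and 152 counts in WT and 117, 158 and 101 counts in S6K1-/- libraries. Its level was 7.89 ± 1.23 CPM in WT and 5.41 ± 1.05 CPM in S6K1-/- hESCs (SD, n = 3 each). The groups touched, since S6K1-/- replicate 2 at 6.60 CPM lay just above WT replicate 3 at 6.54 CPM. LFNG had a log2 fold change of -0.54, with a standard error of 0.140 and an adjusted p of 0.0169 from edgeR's test. In the fit of all 6 libraries this log2 fold change was the largest in size among the members tested. Without WT replicate 2 it was -0.44, smaller in size than HES1 at 0.49 and DLL3 at -0.47. With 1 library left out, the adjusted p was under 0.05 in 2 of 6 fits, those without WT replicate 3 (0.00802) and without S6K1-/- replicate 2 (0.00427), and reached 0.0846 without S6K1-/- replicate 3. The other fringe genes encode the same kind of enzyme. RFNG had a log2 fold change of 0.02 (interval from -0.11 to 0.14), and MFNG, at 37, 44 and 41 against 28, 35 and 32 counts, one of -0.30 (interval from -0.70 to 0.10). Whether LFNG differed from RFNG in its response was not tested.

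**Figure D2:**
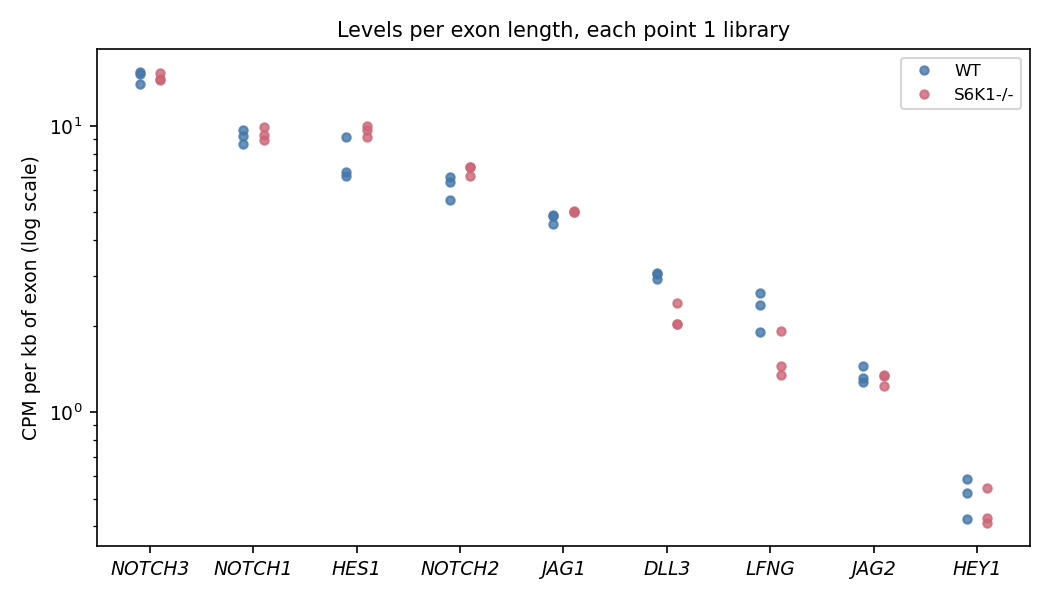
Levels of the 9 tested members per kilobase of merged exon length, in CPM per kb on a log axis, with 1 point per library and WT and S6K1-/- side by side. Receptors, HES1 and JAG1 sit at the left, DLL3, LFNG and JAG2 follow, and HEY1 is the lowest at about 0.511 CPM per kb in WT.

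Compared per exon length, NOTCH3 stood highest in WT hESCs at 14.9 ± 0.768 CPM per kb (SD, n = 3), followed by NOTCH1 at 9.21 ± 0.517 and HES1 at 7.59 ± 1.35. NOTCH2 at 6.17 ± 0.593 and JAG1 at 4.75 ± 0.184 came next, then DLL3 at 3.02 ± 0.0743, LFNG at 2.29 ± 0.357, JAG2 at 1.35 ± 0.0935 and HEY1 at 0.511 ± 0.0818 CPM per kb. Of neighbours in this order, only NOTCH1 and HES1 overlapped between WT libraries. In S6K1-/- hESCs HES1 at 9.60 ± 0.430 and NOTCH1 at 9.38 ± 0.521 CPM per kb exchanged places, again with overlapping libraries, and the other 7 genes held their places. The order in WT was the same with the length of the canonical transcript. The authors' aligner does not bridge splice junctions, and what this does to levels of genes with many exons was not tested. The members range from 4 exons in HES1 to 34 exons in NOTCH1 and NOTCH2 in the canonical GENCODE transcripts.

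HES1 encodes a basic helix-loop-helix repressor that is switched on directly by Notch and represses its own gene and proneural genes. It had 336, 463 and 331 counts in WT and 442, 476 and 448 counts in S6K1-/- libraries. After scaling, WT replicates 1, 2 and 3 lay at 13.8, 18.8 and 14.2 CPM and the S6K1-/- replicates at 18.8, 19.9 and 20.6 CPM. WT replicate 2 thus reached the level of S6K1-/- replicate 1, and the groups overlapped. The log2 fold change was 0.34 (edgeR adjusted p = 0.0330, standard error 0.098). With 1 library left out, the adjusted p was under 0.05 in 2 of 6 fits. Without WT replicate 2 the log2 fold change was 0.49 with an adjusted p of 3.07e-04, past 0.001, and without WT replicate 1 or WT replicate 3 it was 0.26 and 0.28 with an adjusted p of 0.114 and 0.121. Without S6K1-/- replicate 2 or 3 the adjusted p was 0.0868 and 0.103, and without S6K1-/- replicate 1 it was 0.0484. HEY1, a second Notch-induced repressor, had 70, 79 and 54 counts in WT and 70, 56 and 49 counts in S6K1-/- libraries. Its log2 fold change was -0.15, but the interval ran from -0.52 to 0.21 (adjusted p = 0.625) and included 0. With 1 library left out it ranged from -0.29 to -0.042.

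The HES and HEY families were followed further because they hold the best known targets of the pathway. Whether each of their genes answers to Notch in these hESCs was not tested. HEY2 fell by 0.49 on the log2 scale (edgeR adjusted p = 3.33e-05, standard error 0.059). It had 714, 762 and 730 counts in WT and 490, 536 and 477 counts in S6K1-/- libraries, so that the groups were far apart, and it stayed past 0.001 in all 6 fits that each left out a library. HEYL had 106, 95 and 78 against 67, 78 and 56 counts, with a log2 fold change of -0.41 and an adjusted p of 0.0763 from edgeR's test. The log2 fold change was below 0 for all 3 HEY genes in the fit of all libraries and in each alternative, but only HEY2 was past the threshold. Among 6 HES genes tested the sign was mixed, with 3 below 0. HES4 (-0.30, adjusted p = 0.438) and HES6 (0.16, adjusted p = 0.113) did not pass, and HES5, a main Notch target of neural progenitors, had 1 count in 6 libraries. HES2 and HES3, named after their values were seen, had log2 fold changes of -0.95 and -0.15 (adjusted p = 0.00361 and 0.0443 from edgeR's test).

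NRARP, a small ankyrin-repeat protein that Notch induces and that limits Notch activity in turn, rose by 0.32 on the log2 scale (edgeR adjusted p = 7.67e-04, standard error 0.053). It had 1161, 1131 and 964 counts in WT and 1317, 1364 and 1202 counts in S6K1-/- libraries. The level was 45.1 ± 3.20 CPM in WT and 56.1 ± 0.876 CPM in S6K1-/- hESCs (SD, n = 3 each), with all S6K1-/- libraries above all WT libraries. The call was close to its limit. With 1 library left out the adjusted p was under 0.001 only without WT replicate 1 (5.82e-04) and ran up to 0.00483, reached without S6K1-/- replicate 2, and with upper-quartile scaling it was 0.00128. Of 13 target genes tested beyond the members, HEY2 was the 1 lower and NRARP the 1 higher gene past 0.001. Over all genes tested 2.54% were lower and 1.42% higher at that threshold. Whether Notch drives either gene in these cells was not tested.

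**Figure D3:**
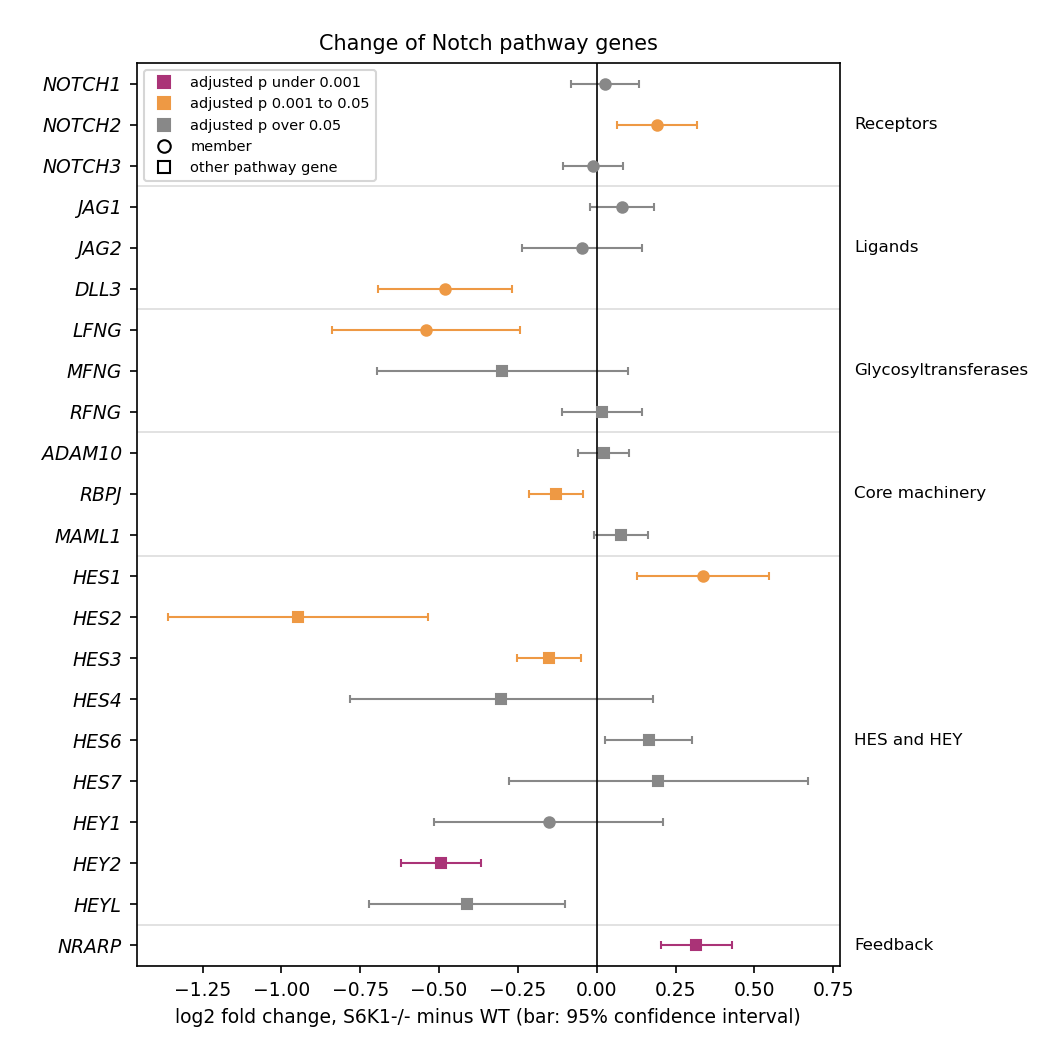
Log2 fold change of S6K1-/- minus WT hESCs with its 95% confidence interval, for the 9 tested members (circles) and other pathway genes (squares), grouped by role and coloured by adjusted p. Of the genes drawn, HEY2 at -0.49 and NRARP at 0.32 are past 0.001 (CNTN1, also past 0.001, is not drawn), and the intervals of NOTCH1, NOTCH3 and ADAM10 are narrow and span 0.

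The promoters of HES1 and HEY2 are shown because RBPJ is known to bind the letters TGGGAA, which were searched on both strands with either orientation counted once per position. Both are written from 250 bases before the RefSeq transcription start to 10 bases from the start on, on GRCh38.p14 and 5′ to 3′ on the plus strand, with capitals for TGGGAA or its reverse complement. HES1 lies at chr3:194135898-194136157 and HEY2 at chr6:125749382-125749641.
HES1: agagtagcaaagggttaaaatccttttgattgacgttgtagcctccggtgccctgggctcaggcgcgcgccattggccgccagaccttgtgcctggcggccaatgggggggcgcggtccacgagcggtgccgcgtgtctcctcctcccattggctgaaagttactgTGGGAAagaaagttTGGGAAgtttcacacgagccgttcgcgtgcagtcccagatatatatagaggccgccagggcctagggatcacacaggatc
HEY2: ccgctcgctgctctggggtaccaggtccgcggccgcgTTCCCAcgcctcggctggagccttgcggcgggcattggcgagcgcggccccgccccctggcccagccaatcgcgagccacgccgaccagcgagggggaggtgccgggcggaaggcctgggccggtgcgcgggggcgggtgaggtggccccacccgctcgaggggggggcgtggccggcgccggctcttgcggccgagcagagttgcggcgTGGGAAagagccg

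In HES1 the matches began 84 and 70 bases before the start, in the same orientation. In HEY2 they began 213 bases before the start, on the minus strand, and 3 bases before it, on the plus strand. Of 35116 RefSeq promoter windows of 300 bases (250 before the start and 50 from it on), 24.0% held TGGGAA at least once and 3.8% at 2 or more positions. Windows were found for 7 of the 10 members. Both windows of LFNG held 1 match, and those of NOTCH1, NOTCH2, NOTCH3, JAG1 and JAG2 held none, as did that of NRARP. The N box CACNAG, a sequence bound by HES repressors, occurred at 4 positions in the 300-base window of HES1, none of them overlapping TGGGAA. It occurred at 2 positions in NOTCH1, at 1 each in NOTCH2, NOTCH3, NRARP and 1 window of LFNG, and at 0 in JAG1, JAG2 and HEY2. Of all windows, 38.0% held CACNAG at least once and 8.94% at 2 or more positions. The E box CACGTG occurred in none of these windows and in 7.26% of all windows. A match is a description of letters, not of binding, and no match says only that these letters are not in the window.

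Beyond the members, 76 further genes of Notch signalling were examined, of which 71 were tested. At an adjusted p under 0.001, 2 were lower and 1 was higher in S6K1-/- hESCs, together 4.23% of those tested, beside 3.96% of all genes (2.54% lower and 1.42% higher). At an adjusted p under 0.05 it was 14.1% beside 13.8%. The median log2 fold change was 0.02, with 32 genes below 0 and 39 above. These shares lay near the background. DESeq2's Wald test also called 3 of them at 0.001.

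The third gene past 0.001, beside HEY2 and NRARP, was CNTN1. It encodes contactin 1, a neuronal adhesion molecule that has been described as a noncanonical Notch ligand. CNTN1 fell by 0.82 on the log2 scale (edgeR adjusted p = 1.52e-06), from 490, 432 and 432 counts to 254, 254 and 225 counts, and it stayed past 0.001 with each library left out. DNER, a neuronal transmembrane protein with EGF repeats also described as a Notch ligand and named after its value was seen, had 42, 41 and 32 against 18, 13 and 16 counts, a log2 fold change of -1.22 (adjusted p = 0.00181).

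None of 9 proteases and their cofactors had an adjusted p under 0.05, where 13.8% of all genes tested did. Their log2 fold changes ran from -0.13 to 0.08. ADAM10, which makes the ligand-dependent cut, had a log2 fold change of 0.02 (interval from -0.06 to 0.10). RBPJ, the DNA-binding partner of the cleaved receptor, had 8046, 7807 and 7948 counts in WT and 7129, 7217 and 6531 counts in S6K1-/- libraries, all of the latter lower. Its log2 fold change was -0.13 (edgeR adjusted p = 0.0440, standard error 0.040), under 0.05 in 1 of 6 fits with a library left out. The coactivator gene MAML1 had a log2 fold change of 0.08 (interval from -0.01 to 0.16). Of 15 nuclear repressor genes, 13 had a log2 fold change above 0, beside 9642 of all 19521 genes tested. The largest was 0.22, and no repressor gene passed 0.001, where 3.96% of all genes tested did. At 0.05, 1 was higher (5.47% of all genes tested), the histone demethylase gene KDM5A at 0.19 (edgeR adjusted p = 0.0169). Of 14 genes for ubiquitination and endocytosis of ligands and receptors, none passed 0.001 either. At 0.05, 1 was lower and 1 higher, beside 8.31% and 5.47% of all genes tested. Among the 6 further glycosyltransferase genes none had an adjusted p under 0.05.

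**Figure D4:**
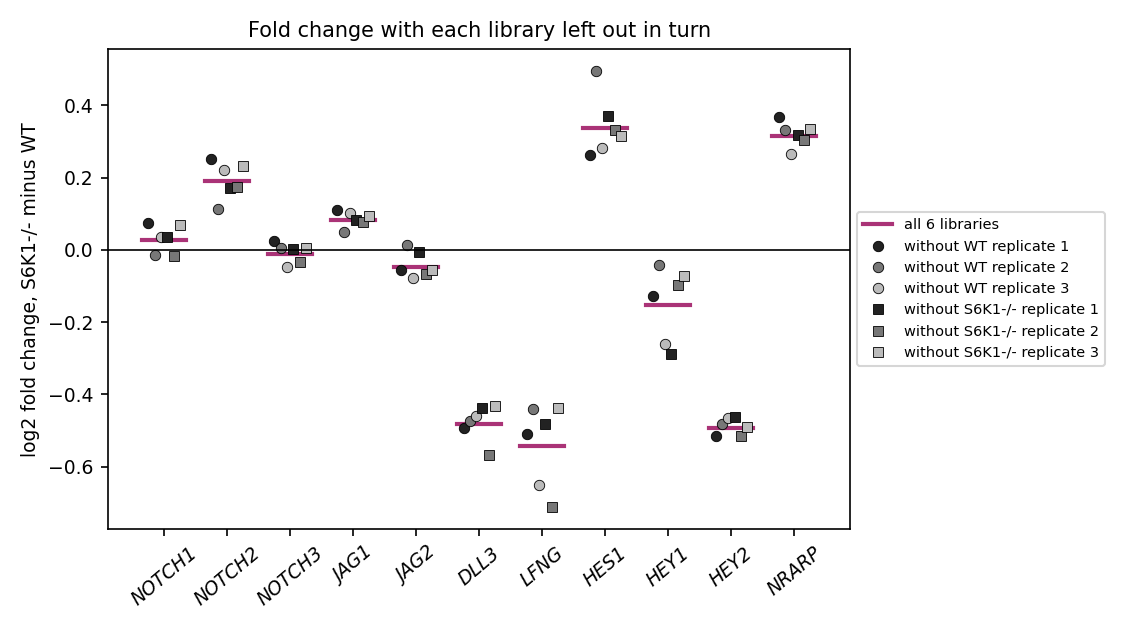
Log2 fold change of S6K1-/- minus WT for the tested members, HEY2 and NRARP, with all 6 libraries (line) and with each library left out in turn (points). HES1 moves from 0.34 to 0.49 without WT replicate 2, LFNG ranges from -0.71 to -0.44, and HEY2 stays between -0.51 and -0.46.

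In the GENCODE annotation of GRCh38, DLL3 spans 39498895 to 39508481 of chromosome 19 on the plus strand, LFNG 2512529 to 2529177 of chromosome 7 (plus), HES1 194136148 to 194138732 of chromosome 3 (plus) and NOTCH2 119911553 to 120100779 of chromosome 1 (minus). HEY2 spans 125747664 to 125761269 of chromosome 6 (plus) and NRARP 137299631 to 137302271 of chromosome 9 (minus). No annotated gene overlaps DLL3 or HES1. NOTCH1, NOTCH2, JAG1, HEY2 and NRARP each overlap a long noncoding RNA gene on the opposite strand, over 955, 476, 1305, 1527 and 559 bp. JAG2 and DLL1 each overlap one on their own strand, over 16631 and 500 bp. LFNG overlaps a microRNA gene with at most 1 count in any library, and DLL1 overlaps FAM120B on the opposite strand over 15863 bp. The RefSeq start used for HEY2 lies inside its GENCODE span. The library kit keeps strand, but the strand setting of the counting is not given in the sources used here, so reads of such partners cannot be told apart.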

How the data were processed

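RNA of 3 WT and 3 S6K1-/- H7 hESC samples was sequenced after preparation with a stranded mRNA kit. Per the labels and the methods, the authors used Trim Galore 0.6.5 for trimming and Bowtie2 2.4.5 for alignment to GRCh38, counted reads per gene with featureCounts and deposited whole-number counts without normalization. The annotation release, strand and multi-mapping settings are not given in the sources used here. A second deposited table holds the authors' own comparison (mean, fold change, standard error, statistic, p-values and a call) and was not used.

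Counts were filtered with filterByExpr, which kept 19521 genes, scaled by TMM and tested with edgeR 4.0.16 (R 4.3.3) by its quasi-likelihood F test, with genotype as the only factor and Benjamini-Hochberg adjustment over all genes tested. The threshold was 0.001, as in the study, which applied it to DESeq2's Wald test. CPM were computed with TMM library sizes. Standard errors are the absolute log2 fold change divided by the root of F, and confidence intervals are at 95%. DESeq2 1.42.0 was an alternative. Others were its size factors, upper-quartile scaling, no filter, a block for replicate number, a minimum of 10 counts per library, omission of each library in turn and thresholds of 0.01 and 0.05. Canonical transcript length was added after seeing the data. The steps were tested on simulated data. Libraries of 1 group differed by more than counting noise (chi-square per degree of freedom of 2.22 to 4.46). This value was 4.32 and 3.82 for WT replicate 2 against WT replicates 1 and 3, and 2.22 between WT replicates 1 and 3. In S6K1-/- libraries it was 2.67 for replicates 1 and 2, 3.27 for 1 and 3, and 4.46 for 2 and 3.

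The members and the gene lists were chosen with earlier results of these data known. The rule for names takes RPS6KB1, the members, pathway genes past the threshold (at most 6 in each direction), the NOTCH2 copies, marker genes past the threshold (at most 3 per list) and RBPJ, MAML1, ADAM10, NOTCH4, DLL4, MFNG, RFNG, HES4, HES5, HES6, HEY2, HEYL and NRARP. HES2, HES3, HES7, DNER, KDR, NES, NEUROG3, TBX6, MAP2, MIXL1, SOX1, TDGF1, ERG, TIE1, KDM5A, FOXA2, KRT7, CXCR4 and markers at very low counts were named after their values were seen. Some genes of the lists are not reported here. Positions and exon lengths come from GENCODE 44 and promoters from RefSeq on GRCh38.p14.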

Additional observations from a re-analysis of the deposited data

How the results depend on the processing

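Of 120 values of RPS6KB1 and the 9 tested members under the alternatives, 108 kept their sign and their side of 0.001. Without a filter on low counts, NOTCH2 (0.19), DLL3 (-0.48), HES1 (0.34) and LFNG (-0.54) were past 0.001 with nearly the same log2 fold change, so that 2 members were lower and 2 higher, with 4 lower and 2 higher wider pathway genes and 982 lower and 591 higher genes in all. The cause was not tested. At an adjusted p under 0.01 the counts were 1 lower member, 4 lower wider pathway genes, and 939 lower and 534 higher genes in all. At 0.05 they were 2 lower and 2 higher members, 7 lower and 3 higher wider pathway genes, and 1622 and 1067 genes in all. With upper-quartile scaling 0 wider pathway genes were higher. With 1 library left out, 0 to 1 members and 0 to 1 wider pathway genes were higher, while 313 to 445 genes in all were lower and 175 to 235 higher. In these fits the log2 fold change ran from -0.016 to 0.075 for NOTCH1, from -0.047 to 0.023 for NOTCH3 and from -0.077 to 0.013 for JAG2, whose signs therefore turned, and from 0.26 to 0.49 for HES1, from -0.29 to -0.042 for HEY1 and from 0.050 to 0.11 for JAG1.

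Over all genes tested, the replicate numbers showed no pairing of the libraries. Deviations from the group mean correlated at 0.018, 0.00174 and 0.0316 between libraries of the same number, and WT replicate 1 correlated best with S6K1-/- replicate 2 (0.0343). With the replicate number as a block, 0 members were past 0.001 in either direction, with 423 lower and 241 higher genes in all, 2 lower and 1 higher wider pathway genes, and log2 fold changes of -0.48 for DLL3, -0.55 for LFNG, 0.34 for HES1 and 0.19 for NOTCH2. With this block the edgeR adjusted p was 0.00395 for LFNG, 0.0185 for HES1, 0.0357 for NOTCH2 and 0.00753 for DLL3. Without the block these were 0.0169, 0.0330, 0.0466 and 0.00404, so that it fell for LFNG, HES1 and NOTCH2 and rose for DLL3. DLL1, DLL4, NOTCH4 and HES5 had too few counts for a test.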

Other observations

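A further list held 12 proneural genes and genes of somite formation, processes in which HES repressors, DLL3 and LFNG are known to take part. Of these 12 genes, 2 passed the filter on low counts, beside 31.9% of all symbols. NEUROG3, a proneural gene of the endocrine pancreas, had 30, 44 and 29 counts in WT and 39, 61 and 37 counts in S6K1-/- libraries, a log2 fold change of 0.47 with a 95% confidence interval from -0.00 to 0.94 (edgeR adjusted p = 0.195). TBX6, a mesoderm factor, had a log2 fold change of -0.12 (edgeR adjusted p = 0.656). The somite clock gene HES7 had 34, 37 and 21 against 39, 33 and 29 counts.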
